A study of Mus musculus with 20 samples.

Results

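Protein-induced pluripotent stem cells, titled sFB-protein-iPS, were compared with the cells titled GFPoct4. The members were chosen by their titles and are 8 of the 20 arrays of the series, 4 per group. An induced pluripotent stem (iPS) cell is a body cell brought back to a state like that of an embryonic stem (ES) cell, which can renew itself and form every tissue of the embryo. The sFB-protein-iPS arrays are the ones whose source and cell type fields name iPS cells. The GFPoct4 arrays are named embryonic stem cells in the same fields. Those fields also call the FVB-sFB arrays embryonic stem cells, although the series title speaks of skin fibroblasts and these arrays carry fibroblast genes, so for GFPoct4 the name was checked against marker genes. The labels give no strain, sex, passage, clone, medium or feeder cells for either group, they do not explain the words protein and GFPoct4, and no treatment separates or is shared by the groups beyond the reprogramming that the title implies. They do not say whether the 4 arrays of a group came from separate cultures, so the p-values measure only the spread between these arrays, which may be technical. The other 12 arrays (E14-mES, C57-mES and FVB-sFB, 4 each) serve as reference levels and for the estimate of the spread.

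Mouse ES cells are held in the naive state by a network of transcription factors around Pou5f1 (Oct4), Nanog, Sox2, Klf4 and Esrrb. In cultures of such cells a minority leaves this state for short times, towards primitive endoderm, the extraembryonic layer set up by Gata6 and Sox17, or towards a state like that of the embryo at the two-cell stage, marked by the Zscan4 genes. Signalling through fibroblast growth factor (FGF) and the kinase ERK favours primitive endoderm, and its feedback inhibitors of the Spry, Spred and Dusp families are used as a readout of it. Fibroblasts, from which many iPS lines are made and on which many are grown, are known by secreted matrix proteins such as decorin and by the surface protein Thy1.

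Each array measured 25697 probes for 16593 genes on Illumina mouse bead arrays, and every level is given as log2 intensity after background correction and quantile normalization. The background level of an array was taken from 1305 probes for odour and pheromone receptor genes, as the 95th percentile of their values, and lay between 6.68 and 6.83 on this scale over the 20 arrays. Median raw intensity was 94.4 to 101 on the sFB-protein-iPS arrays and 114 to 122 on the GFPoct4 arrays. The brightest probe read 45509 to 51118 and 58519 to 63254. The low maximum was shared with the C57-mES and FVB-sFB arrays and the high one with the E14-mES arrays, so that no such set of arrays holds both groups compared, and an effect of the scan or hybridization cannot be told apart from the difference between the cells. Pairs of arrays correlated at 0.993 to 0.995 within sFB-protein-iPS, at 0.989 to 0.995 within GFPoct4 and at 0.960 to 0.966 between them. This describes 16593 genes, each by its brightest probe, and not independent replicates. GFPoct4 array 1 stood apart from the other 3, and values without it are given for the genes described below that depended on it most.

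All 8 marker genes of pluripotent cells were above background on all arrays of both groups, with mean levels from 11.06 to 15.56 in sFB-protein-iPS and from 11.27 to 15.61 in GFPoct4, against 6.23 to 7.20 in FVB-sFB. The markers of pluripotent cells were thus present in both groups, and they do not separate iPS from ES cells. Of 8 fibroblast markers, 1 was above background on all 4 sFB-protein-iPS arrays and 3 on all 4 GFPoct4 arrays, with Dcn at a mean of 11.66, against 7 in FVB-sFB.

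The groups differed in 1021 of 16593 genes, or 6.15%, at a limma adjusted p under 0.05 and a log2 fold change of at least 1 in size, which is a fold of 2. Of these, 445 were higher (2.68%) and 576 lower (3.47%) in sFB-protein-iPS. Most differences were modest: 911 genes lay between 2- and 4-fold, 110 were over 4-fold and 23 over 8-fold. The 4 arrays of one group did not overlap with those of the other in 1012 of the called genes, where 36.9% of all genes tested did not overlap. This mostly follows from the rule for a call, made on the same arrays, and is no separate support. The median SD within a group was 0.13 in sFB-protein-iPS and 0.14 in GFPoct4. The balance of directions depended on the scaling. The share of calls that were higher was 43.6% with quantile normalization, 17.3% (208 higher, 992 lower) when the arrays were only centred on their medians, and 8.67% (132 higher, 1391 lower) in the deposited log2 values, which are not normalized and in which the median over all genes was shifted by -0.25. Median centring shared 776 calls with the fit used here and the deposited values shared 708, of which 0 had the opposite sign in either.

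**Figure D1:**
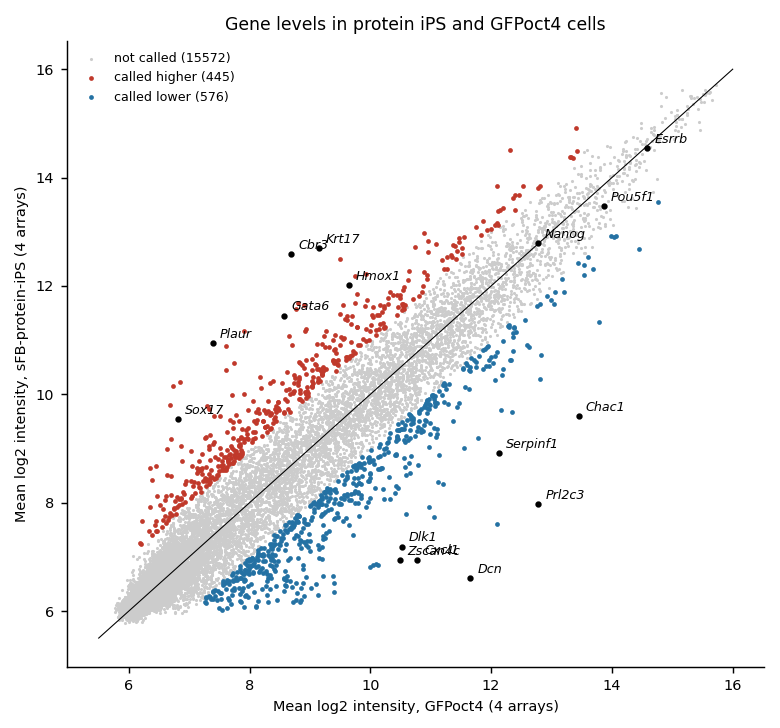
Mean log2 intensity of 16593 genes on the 4 GFPoct4 arrays (x axis) and the 4 sFB-protein-iPS arrays (y axis), with the line of equal levels. Red points are the 445 genes called higher in sFB-protein-iPS and blue points the 576 called lower, and black points with names are genes described in the text. Nanog and Esrrb lie on the line, Cbr3 and Krt17 far above it and Dcn, Prl2c3 and Chac1 far below it.

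The best known pluripotency factors were bright in both groups, and few were called. Of 17 measured core factors 0 were called higher and 1 lower by the limma fit, a share of 5.88% near the 6.15% over all genes. An unadjusted limma p under 0.05 was found for 9 of the 17, where 7534 of all 16593 genes had one. The log2 fold changes of the 17 factors lay between -1.46 and 0.94 with a median of 0.09, against 0.01 over all genes. Nanog, a homeobox factor of the naive network, read 12.86, 12.72, 12.72 and 12.85 on sFB-protein-iPS arrays 1 to 4 and 12.82, 12.93, 12.77 and 12.58 on GFPoct4 arrays 1 to 4. The groups overlapped, and the difference was 0.02 ± 0.09 (log2 ± SE, limma adjusted p = 0.91). Pou5f1, the factor without which no pluripotent cell forms, read 13.71, 13.36, 13.38 and 13.44 in sFB-protein-iPS and 14.15, 13.85, 13.71 and 13.75 in GFPoct4. The groups met at 13.71, where the highest sFB-protein-iPS array and the lowest GFPoct4 array lay, and the difference of -0.39 ± 0.10 stayed well under a fold of 2 (limma adjusted p = 0.0035). Esrrb, an orphan nuclear receptor of the naive state, differed by -0.05 ± 0.11 and Klf4, one of the reprogramming factors, by 0.03 ± 0.10, with overlapping arrays in both cases, while other probes of Klf4 gave 0.19 and -0.43. The sign of the Klf4 and Nanog differences turned under the other scalings and the sign of the Esrrb difference without GFPoct4 array 1.

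Sox2, the partner of Pou5f1 on DNA, was measured by probes that disagreed. On the brightest probe it read 11.64, 11.87, 11.64 and 11.73 in sFB-protein-iPS and 11.89, 11.39, 10.88 and 10.91 in GFPoct4. The GFPoct4 arrays spread around the tight sFB-protein-iPS arrays, and the difference was 0.45 ± 0.15, or 0.66 without GFPoct4 array 1, while another probe gave -1.22. No direction is given for Sox2. Zfp42 (Rex1), a marker that is lost early when naive cells differentiate, read 13.70, 13.65, 13.37 and 13.73 in sFB-protein-iPS and 13.36, 12.86, 12.62 and 12.65 in GFPoct4. All 4 sFB-protein-iPS arrays were above the highest GFPoct4 array, if barely for the lowest, and the difference of 0.74 ± 0.12 was under the limit for a call (limma adjusted p = 2.60e-05). Myc was dim, with means of 7.25 and 6.73, and was above background on 1 of 4 GFPoct4 arrays.

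The core factor that passed the test was Tdgf1 (Cripto), the co-receptor of Nodal. It read 9.26, 8.98, 9.22 and 9.18 in sFB-protein-iPS and 10.53, 10.24, 10.87 and 10.86 in GFPoct4. The groups were clearly apart, and Tdgf1 was 2.76-fold lower (log2 -1.46 ± 0.14, limma adjusted p = 2.90e-09). Among 18 naive factors 1 rose and 3 fell, 22.2% of them in all, where 2.68% of all genes were called higher and 3.47% lower. Nr5a2, an orphan receptor that can stand in for Pou5f1 in reprogramming, rose 3.11-fold from a mean of 10.63 ± 0.07 to 12.27 ± 0.12 (SD, n = 4 each). Pecam1, an adhesion molecule of the inner cell mass, fell by 1.08 on the log2 scale, with a second probe at 0.10. Jam2 fell by 1.16 on its brightest probe while another gave 1.05, so its direction is not settled. Mylpf, a myosin light chain bright in ES cells, fell by 1.03, and its call was lost when sFB-protein-iPS array 4 or GFPoct4 array 2, 3 or 4 was left out (-0.93 to -1.30 over the arrays left out).

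Many genes of primitive endoderm were higher in sFB-protein-iPS. Of 28 measured members 12 were called higher (2.68% over all genes) and 0 lower, and the median log2 fold change of the list was 0.68. The called members were the transcription factors Gata6, Sox17, Foxq1, Sox7 and Foxa2, the water channel Aqp8, the cubilin partner Amn, the basement membrane chains Lama1 and Col4a2, the keratin Krt8, the ion transport regulator Fxyd3 and the activin antagonist Fst. The count was 8 with median centring, and 7 higher with 1 lower in the deposited values.

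Gata6, the zinc finger factor that starts the primitive endoderm programme, read 11.51, 11.50, 11.48 and 11.32 on sFB-protein-iPS arrays 1 to 4 and 8.58, 8.65, 8.60 and 8.48 on the GFPoct4 arrays. Every sFB-protein-iPS array was more than 2 log2 units above every GFPoct4 array, a 7.35-fold difference (log2 2.88 ± 0.22, limma adjusted p = 6.15e-11). Its level was 7.17 ± 0.16 in E14-mES and 7.70 ± 0.07 in C57-mES (SD, n = 4 each), below both. Sox17, which follows Gata6 in this lineage, read 9.49, 9.56, 9.48 and 9.61 in sFB-protein-iPS and 6.84, 6.82, 6.80 and 6.76 in GFPoct4. In GFPoct4 it was barely above background and in sFB-protein-iPS it was clearly present, 6.63-fold higher (log2 2.73 ± 0.08, limma adjusted p = 3.40e-18), and its other probe gave 1.28.

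Foxq1 was 5.38-fold higher, with 11.10, 11.09, 10.96 and 11.17 in sFB-protein-iPS and 8.56, 8.76, 8.64 and 8.65 in GFPoct4. Aqp8 was 4.56-fold higher, at 9.60 ± 0.13 against 7.41 ± 0.18. Lama1, the laminin chain of the first embryonic basement membrane, read 13.05, 13.04, 13.06 and 13.19 in sFB-protein-iPS and 11.92, 11.62, 11.48 and 11.94 in GFPoct4. None of these arrays overlapped between the groups. Sox7 was 2.6-fold, Amn 3.02-fold and Krt8 3.5-fold higher. Col4a2 (1.17 ± 0.11), Fxyd3 (1.15 ± 0.11), Fst (1.07 ± 0.10) and Foxa2 (1.07 ± 0.10, at least 1.44-fold, since Foxa2 was below background in GFPoct4) lay close to the limit and lost their calls with median centring and in the deposited values.

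Other members were not called. Gata4, the partner of Gata6, read 7.07, 6.95, 6.89 and 7.07 in sFB-protein-iPS, just above background, and 6.39, 6.51, 6.67 and 6.51 in GFPoct4, below it, with a difference of 0.47 ± 0.09 that was not called. Pdgfra, the surface receptor by which primitive endoderm is often sorted, was not called and pointed the other way, with 7.90, 7.78, 7.72 and 8.03 in sFB-protein-iPS and 8.47, 8.45, 8.56 and 8.63 in GFPoct4 (log2 -0.68 ± 0.11, limma adjusted p = 2.98e-05). Pdgfra is also a fibroblast gene and had a mean of 11.65 in FVB-sFB. In a bulk sample, a few cells with much of an RNA and many cells with little of it cannot be told apart.

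**Figure D2:**
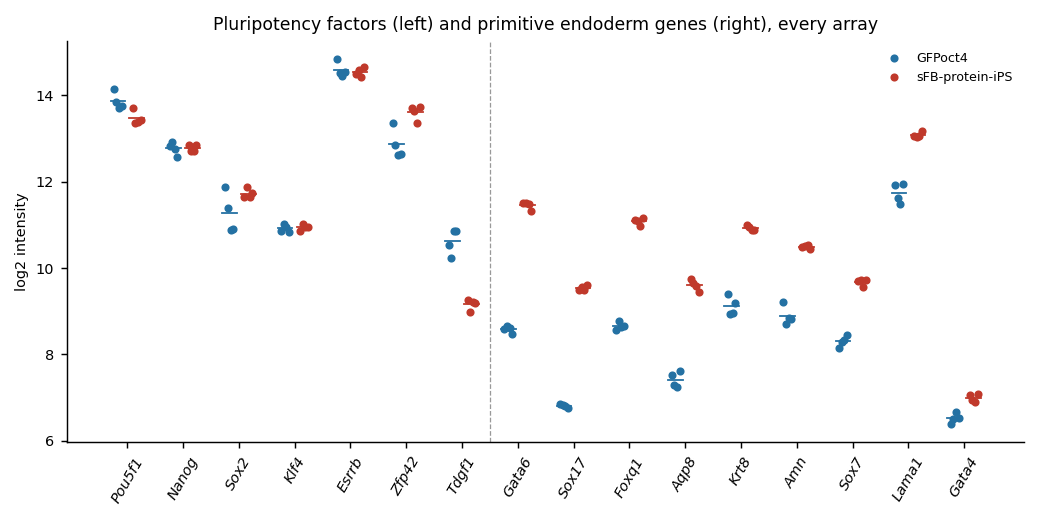
Log2 intensity (y axis) of 7 pluripotency genes, left of the dashed line, and 9 primitive endoderm genes, right of it, on each of the 4 GFPoct4 arrays (blue) and 4 sFB-protein-iPS arrays (red). Short lines are group means. The group means of the pluripotency genes lie less than 1 log2 unit apart except for Tdgf1, and the endoderm genes are separated by 1 to 3 log2 units except Gata4.

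Several epithelial genes were also higher. Of 20 measured members of the list of epithelial junctions and keratins 8 were called higher (2.68% over all genes) and 0 lower, with a median of 0.86. Like the other lists, this one was written with earlier results of these data known. It includes Lor and Esrp1, so the count is a description and not a test. The count was 7 with median centring and 3 in the deposited values. Krt17, a keratin of stressed and basal epithelium, read 12.68, 12.71, 12.73 and 12.67 in sFB-protein-iPS and 9.12, 9.06, 9.16 and 9.26 in GFPoct4. Its arrays were tight and far apart, a difference of 11.7-fold (log2 3.55 ± 0.10, limma adjusted p = 1.17e-18). In E14-mES the mean was 10.60 ± 0.20 and in C57-mES 9.32 ± 0.15. Lor (loricrin), the main protein of the cornified envelope of skin, read 10.08, 10.30, 10.28 and 10.26 in sFB-protein-iPS and 6.72, 6.98, 6.97 and 6.71 in GFPoct4. It was above background on 3 of 4 GFPoct4 arrays and 10.5-fold higher in sFB-protein-iPS (log2 3.39 ± 0.12, limma adjusted p = 5.08e-17).

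The simple keratins Krt8 and Krt18, which pair with each other in early epithelia, were 3.5-fold and 2.74-fold higher. The splicing factor Esrp1 was 2.68-fold higher, and the tight junction claudins Cldn6 and Cldn4 were 2.66-fold and 2.29-fold higher. Krt19 was at least 1.76-fold higher from a GFPoct4 level below background. It lost its call in 8 of 18 alternatives. Among these were median centring, the 8 arrays fitted alone and leaving out sFB-protein-iPS array 3 or GFPoct4 array 3 or 4. Sfn (14-3-3 sigma), a cell cycle inhibitor of stratified epithelium, was 10.7-fold higher on its brightest probe (log2 3.41 ± 0.17), and its other probe was below background in both groups. Of 13 keratinocyte markers Lor alone was called, 7.69% against 6.15% over all genes. On that list 7 were below background on all 4 sFB-protein-iPS arrays and 7 on all 4 GFPoct4 arrays, and the median was 0.11.

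Among 20 genes of FGF and ERK feedback 5 rose (2.68% over all genes) and 1 fell (3.47%), with a median of 0.11. The median was -0.04 with median centring, where 4 rose and 1 fell, and -0.29 in the deposited values, where 3 rose and 1 fell. Plaur, the receptor of the protease urokinase, read 11.06, 10.93, 10.91 and 10.86 in sFB-protein-iPS and 7.18, 7.57, 7.44 and 7.36 in GFPoct4. The lowest sFB-protein-iPS array was over 3 log2 units above the highest GFPoct4 array, an 11.8-fold difference (log2 3.55 ± 0.11, limma adjusted p = 2.59e-18). Spry4, a feedback inhibitor of receptor tyrosine kinases, read 10.68, 10.52, 10.44 and 10.66 in sFB-protein-iPS and 7.55, 7.78, 7.45 and 8.20 in GFPoct4. It was 7.12-fold higher (log2 2.83 ± 0.17, limma adjusted p = 1.39e-12) although GFPoct4 array 4 was above the other 3. Phlda1 was 7.95-fold higher, Dusp6, the phosphatase of ERK, 2.32-fold and Spred1 2.11-fold, of which Dusp6 lost its call in the deposited values and Spred1 there and with median centring. Other probes of Dusp6 gave 1.41 and -0.19, and its call was also lost with the mean over probes. Ier3 was 2.11-fold lower. The other 14 members, among them Spry1, Spry2, Spred2 and Dusp4, were not called and lay between -0.62 and 0.68. Over the whole list 11 members were positive and 9 negative.

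Hbegf, a ligand of the epidermal growth factor receptor and among the 20 largest increases, was 5.39-fold higher, at 12.17 ± 0.19 against 9.74 ± 0.23. Fgfbp1, which releases FGF from the matrix, was 5.61-fold higher and above background on 1 of 4 GFPoct4 arrays. Of 19 immediate early genes, which answer growth factors within minutes, 4 rose (2.68% over all genes) and 1 fell (3.47%), with a median of 0.30. With median centring 3 rose and 2 fell, and in the deposited values 2 rose and 2 fell with a median of -0.08. Ccn1 was 3.62-fold, the RNA decay factor Zfp36 3.52-fold and Klf6 2.36-fold higher, while second probes of Ccn1 and Klf6 gave 0.20 and 0.24. Srf, the serum response factor, was just past the limit at 1.02 ± 0.10 and lost its call with both other scalings. Arc, a gene of neuronal activity that answers the same signals, was 7.36-fold higher with 11.65, 11.69, 11.65 and 11.73 in sFB-protein-iPS and 8.91, 8.82, 8.66 and 8.82 in GFPoct4.

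Hs3st1, a heparan sulfate sulfotransferase, was 7.05-fold higher. Nppb, the B-type natriuretic peptide, was 9.71-fold higher, Zbtb7a, a zinc finger repressor, 9.63-fold, the scaffold protein Ahnak 6.77-fold, and Fam83h, a keratin-binding protein, 5.63-fold. Tead4, the factor that opens the trophoblast programme, was 4.25-fold higher on its brightest probe with another at 0.66. The trophoblast list had 3 called higher of 17 (2.68% over all genes) and 0 lower, with a median of -0.01. Its other called members were Krt8 and Krt18. Socs3, the feedback inhibitor of LIF signalling, was 2.38-fold higher and lost its call in the deposited values. Of 17 LIF and STAT3 genes 2 rose (2.68% over all genes) and 1 fell (3.47%), with a median of 0.03. The one that fell was the kinase Jak1 (log2 -1.02), whose call was lost with median centring. Id1, a target of BMP signalling, was 2.64-fold higher. Of 14 BMP and Id genes 2 rose (2.68% over all genes) and 1 fell (3.47%), with a median of 0.09. With median centring 1 rose and 2 fell, and in the deposited values 1 rose and 3 fell. The other gene that rose, Id2, lost its call with both other scalings, and its second probe gave 0.09. The one that fell, Bmpr1a, is described below.

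Several enzymes of redox defence and detoxification were higher. Of 27 measured members 8 were called higher (2.68% over all genes) and 1 lower, with a median of 0.33. The count was 6 higher and 1 lower with median centring, and 5 higher and 2 lower in the deposited values, where the median of the list was -0.05. The largest increase in the whole comparison was Cbr3, a carbonyl reductase outside the list. It read 12.66, 12.63, 12.51 and 12.55 in sFB-protein-iPS and 8.48, 8.77, 8.57 and 8.92 in GFPoct4. That is a 15-fold difference with no overlap (log2 3.90 ± 0.14, limma adjusted p = 8.05e-17), and the means in E14-mES and C57-mES lay in between, at 11.49 and 10.31.

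Gpx2, a glutathione peroxidase of epithelia, read 9.86, 9.77, 9.96 and 9.58 in sFB-protein-iPS and 6.62, 6.61, 6.86 and 6.66 in GFPoct4. It was near background in GFPoct4 and 8.6-fold higher in sFB-protein-iPS (log2 3.10 ± 0.13, limma adjusted p = 1.21e-15). Hmox1, the haem oxygenase that marks oxidative stress, read 12.08, 11.95, 12.06 and 11.96 in sFB-protein-iPS and 9.78, 9.54, 9.65 and 9.59 in GFPoct4. Both groups were tight and 5.18-fold apart (log2 2.37 ± 0.13, limma adjusted p = 3.65e-13). Mt2, a metallothionein that binds zinc and cadmium, read 10.67, 10.42, 10.37 and 10.30 in sFB-protein-iPS and 6.81, 7.82, 7.72 and 8.07 in GFPoct4. GFPoct4 array 1 was about 1 log2 unit below the other 3, and the groups did not overlap (log2 2.83 ± 0.28, 7.13-fold, limma adjusted p = 6.96e-09), with 2.57 on the log2 scale without that array.

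Srxn1, which repairs peroxiredoxins, was 2.91-fold higher. Gclm, the regulatory subunit of the enzyme that starts glutathione synthesis, read 11.60, 11.62, 11.80 and 11.54 in sFB-protein-iPS and 10.21, 10.13, 10.12 and 10.18 in GFPoct4, 2.79-fold higher (log2 1.48 ± 0.12, limma adjusted p = 1.86e-10). Gstm2 was 2.42-fold higher. Gpx3 (1.09 ± 0.12) and Gsta3 (1.03 ± 0.27) lost their calls with both other scalings, and Gsta3 also without GFPoct4 array 1 (0.96). The member that fell was Chac1, which breaks glutathione down and is described with the amino acid stress genes.

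Cbr3, Hmox1, Srxn1 and Gclm are known in textbooks as targets of the factor Nrf2, which binds the antioxidant response element with the core TGACNNNGC. They were picked among genes that rose. Nqo1 (log2 -0.51), Txnrd1 (0.14) and Gclc (0.28), known in the same way, were not called. The 250 bases before the start site, from the RefSeq promoter table of the mouse build GRCm38.p6, were searched on both strands. The core was in 3338 of 32851 such windows, or 10.2%. Of the 27 redox members 24 had a window and 6 held the core. Of the 9 called members 8 had a window and 3 held it, namely Gclm, Gsta3 and Mt2. The window of Srxn1 did not hold it, Hmox1 had no window and Cbr3, outside the list, was not counted. A member with several windows counted if any of them held the core, whereas the 10.2% is per window. The windows of 2 of them are shown because they show the difference in where and on which strand the core lies, in capitals. That of Gclm (chr3:122245307-122245556, plus strand) has its match on the opposite strand, starting 134 bases before the start site. That of Mt2 (chr8:94172368-94172617, plus strand) has it on the same strand, starting 79 bases before the start site. A match is a run of letters, not a site shown to be bound.
Gclm: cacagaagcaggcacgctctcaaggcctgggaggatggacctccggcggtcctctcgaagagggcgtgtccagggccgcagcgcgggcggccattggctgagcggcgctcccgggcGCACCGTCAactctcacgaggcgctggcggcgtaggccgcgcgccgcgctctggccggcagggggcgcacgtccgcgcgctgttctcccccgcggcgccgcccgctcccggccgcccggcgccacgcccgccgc
Mt2: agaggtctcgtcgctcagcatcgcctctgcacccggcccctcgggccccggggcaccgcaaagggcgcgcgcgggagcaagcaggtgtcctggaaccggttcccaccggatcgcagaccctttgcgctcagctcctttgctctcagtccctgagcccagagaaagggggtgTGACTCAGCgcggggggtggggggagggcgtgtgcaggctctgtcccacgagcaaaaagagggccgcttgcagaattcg

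**Figure D3:**
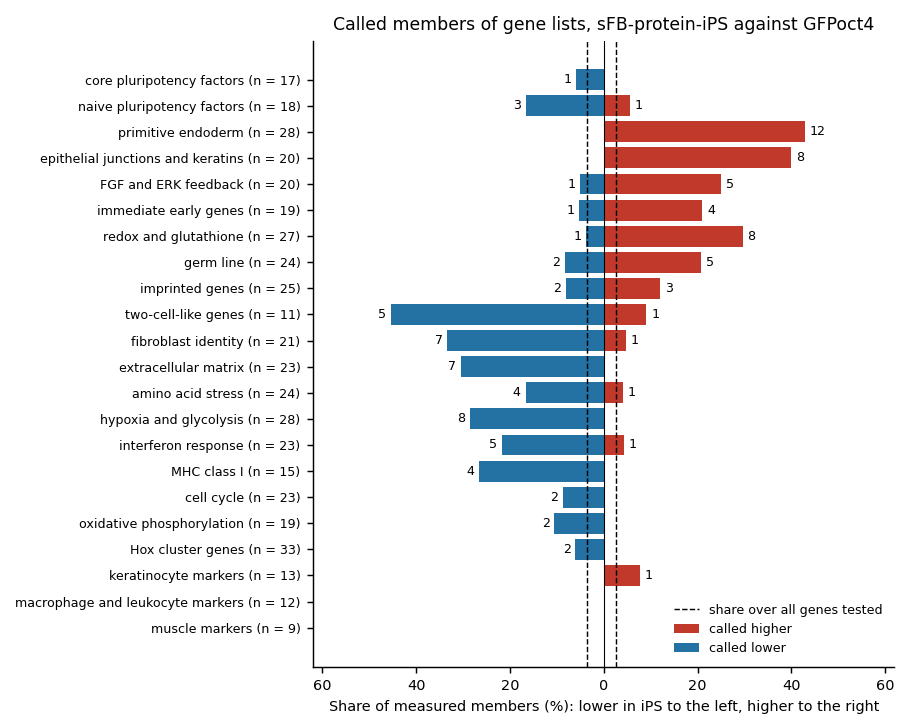
Share of the measured members of 22 gene lists that were called higher (red, to the right) or lower (blue, to the left) in sFB-protein-iPS, in percent, with the number of called members at each bar. Dashed lines mark the shares over all genes tested, 2.68% higher and 3.47% lower. Primitive endoderm, epithelial and redox lists extend to the right, and two-cell-like, fibroblast, matrix and glycolysis lists to the left.

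Several genes of fibroblasts and their matrix were lower in sFB-protein-iPS. Of 21 genes of fibroblast identity 7 were called lower (3.47% over all genes) and 1 higher, with a median of -0.54, and of 23 genes of the extracellular matrix 7 were lower and 0 higher, with a median of -0.41. The fibroblast count was 8 lower with median centring and 11 in the deposited values, with 0 higher in both. Dcn (decorin), a proteoglycan that coats collagen fibrils, read 6.86, 6.39, 6.74 and 6.44 in sFB-protein-iPS and 11.64, 11.60, 11.72 and 11.68 in GFPoct4. It was at background in sFB-protein-iPS, above it on 1 of 4 arrays, and 33.1-fold lower than in GFPoct4 (log2 -5.05 ± 0.11, limma adjusted p = 7.65e-21). Its level was 6.33 ± 0.18 in E14-mES, 8.68 ± 0.13 in C57-mES and 14.09 ± 0.14 in FVB-sFB, so GFPoct4 stood above both other ES groups and below FVB-sFB.

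Serpinf1, a secreted inhibitor of blood vessel growth, read 8.86, 8.95, 9.03 and 8.80 in sFB-protein-iPS and 12.33, 12.06, 11.97 and 12.14 in GFPoct4. The groups were 9.27-fold apart (log2 -3.21 ± 0.11, limma adjusted p = 3.10e-17), with 15.51 ± 0.13 in FVB-sFB. Timp2, an inhibitor of matrix metalloproteases, was 6.64-fold lower, and Bgn (biglycan) 5.83-fold. Igfbp4, which binds insulin-like growth factors, was 8.28-fold lower and Axl, a receptor kinase, 9.94-fold lower. Thy1 read 8.14, 8.18, 8.36 and 8.13 in sFB-protein-iPS and 9.48, 9.82, 9.94 and 9.92 in GFPoct4, with no overlap and a 3.01-fold difference (log2 -1.59 ± 0.17, limma adjusted p = 4.24e-08).

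For the following genes sFB-protein-iPS was below background on all 4 arrays, so the folds are lower bounds. Cav1, the coat protein of caveolae, was at least 5.96-fold, the matrix Gla protein Mgp at least 5.93-fold and Nrn1 (neuritin) at least 4.96-fold lower. The metalloprotease Mmp3 was at least 3.7-fold, Thbs2 (thrombospondin) at least 3.09-fold and Lox, the enzyme that crosslinks collagen, at least 2.86-fold lower. Twist2, a transcription factor of mesenchyme, was at least 2.18-fold and S100a4 at least 1.75-fold lower, of which S100a4 lost its call without GFPoct4 array 3 or 4. Without GFPoct4 array 1 the log2 fold changes of Mgp and S100a4 were -3.10 and -1.29, against -2.88 and -1.05 with it. Tnc (tenascin) gave -2.45 ± 0.11 and Col6a1 -1.80 ± 0.20, and the other probe of each that was above background gave -2.03 and -1.70. Probes above background differed for Fbln2 (fibulin, -3.19 ± 0.14 on the brightest and -0.48 on another), for Cd44 (-1.42 ± 0.10 and 0.22) and for Acta2 (-1.46 ± 0.09 and 0.10).

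Of the other fibroblast markers, the mesenchymal homeobox factor Prrx1 had a mean of 7.69 in GFPoct4, 6.75 in sFB-protein-iPS and 11.55 in FVB-sFB. Col1a1, the main chain of collagen I, read 6.57, 6.27, 6.54 and 6.21 in sFB-protein-iPS and 6.68, 6.51, 6.62 and 6.57 in GFPoct4, below background on all 8 arrays, against 12.60 ± 0.13 in FVB-sFB. Lum and Pdgfrb had means at or under 6.56 in both groups. Over the 21 genes of fibroblast identity the summed level, as log2 of the summed intensities, was 12.1 to 12.2 on the sFB-protein-iPS arrays, 13.4 to 13.5 on the GFPoct4 arrays and 17.4 to 17.5 on the FVB-sFB arrays. Tagln, an actin-binding protein, was the member that rose (1.21 ± 0.11), and it lost its call with both other scalings. The part of fibroblasts or other cells in the GFPoct4 cultures in these differences was not tested. Markers of macrophages and of muscle gave 0 called genes of 12 and of 9 by limma, where 6.15% of all genes were called. The medians were -0.03 and 0.20. An unadjusted limma p under 0.05 was found for 6 and 3 of the markers, where 7534 of all 16593 genes had one. Of 13 endothelial markers 2 fell (3.47% over all genes) and 0 rose, namely the junction molecule Esam (-1.33 ± 0.16) and Pecam1, which is also on the naive list, with a median of -0.12.

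**Figure D4:**
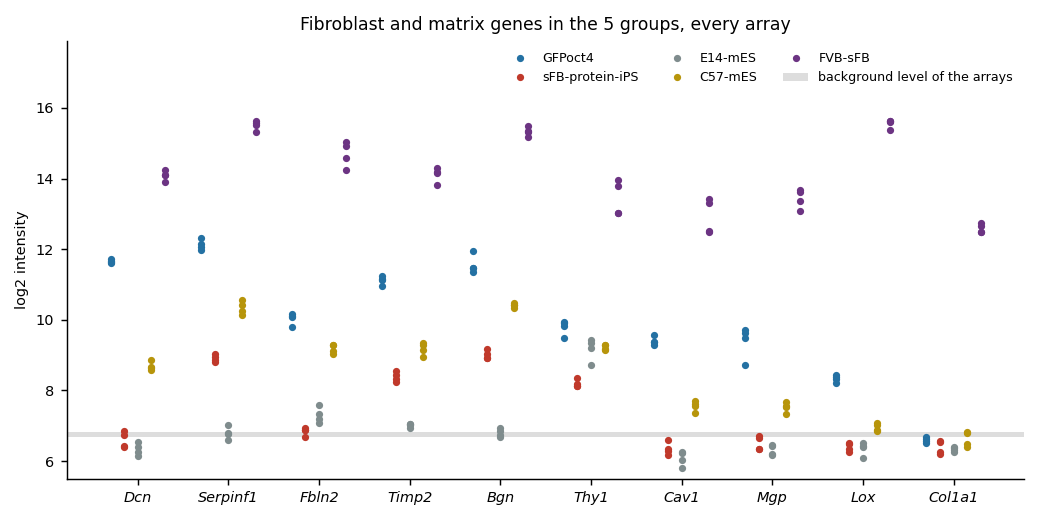
Log2 intensity (y axis) of 10 fibroblast and matrix genes on each of the 20 arrays, coloured by group, with the range of the arrays' background levels as a grey band. For each gene from Dcn to Lox the GFPoct4 points lie between those of sFB-protein-iPS and FVB-sFB, and for Col1a1 the FVB-sFB points alone rise above the band.

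The proliferin genes Prl2c3 and Prl2c4, placental hormones that are also made by growing fibroblasts, showed the next largest decreases. Prl2c3 read 7.93, 7.88, 8.15 and 7.94 in sFB-protein-iPS and 12.56, 12.78, 12.84 and 12.94 in GFPoct4. GFPoct4 was 28-fold higher without overlap (log2 -4.81 ± 0.31, limma adjusted p = 3.51e-12). In E14-mES the mean was 6.28 ± 0.10, at background, and in FVB-sFB 13.47 ± 1.18. Prl2c4 gave -4.50 ± 0.30, but the copies of this family are nearly identical and a probe may read more than 1 of them. Cxcl1, a chemokine that attracts neutrophils, read 6.71, 7.03, 7.08 and 6.97 in sFB-protein-iPS and 10.60, 10.74, 10.78 and 10.99 in GFPoct4. It was 14.2-fold lower in sFB-protein-iPS (log2 -3.83 ± 0.20, limma adjusted p = 7.02e-14), where it was above background on 3 of 4 arrays.

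Several genes of the two-cell-like state were lower in sFB-protein-iPS. Of 11 measured members 5 were called lower (3.47% over all genes) and 1 higher (2.68%), with a median of -0.65, and these counts were the same with median centring and in the deposited values. Zscan4c, which protects telomeres in that state, read 6.82, 7.10, 6.79 and 7.02 in sFB-protein-iPS and 10.94, 10.31, 10.38 and 10.32 in GFPoct4. In sFB-protein-iPS it was at background, above it on 2 of 4 arrays, and 11.7-fold lower (log2 -3.55 ± 0.12, limma adjusted p = 3.51e-17). Its level was 8.56 ± 0.12 in E14-mES, 7.53 ± 0.17 in C57-mES and 6.35 ± 0.10 in FVB-sFB. Tmem92 was at least 4.22-fold, Tcstv1 at least 4.85-fold, Tcstv3 at least 5.26-fold and Gm5662 at least 3.44-fold lower, each below background on all 4 sFB-protein-iPS arrays. A second probe of Gm5662 gave 0.68. Eif1a, a translation initiation factor on the list, rose 2.38-fold. The Zscan4 and Tcstv genes have near-identical copies, and which copy a probe reads is uncertain.

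Genes of the response to amino acid shortage included some of the largest decreases, but most of the list was not called. Of 24 measured members 4 fell (3.47% over all genes) and 1 rose (2.68%), with a median of -0.26. Chac1, which degrades glutathione and is induced by the factor Atf4, read 9.57, 9.65, 9.56 and 9.59 in sFB-protein-iPS and 13.68, 13.42, 13.35 and 13.35 in GFPoct4. The groups were 14.5-fold apart (log2 -3.86 ± 0.13, limma adjusted p = 2.73e-17), with 10.29 in E14-mES, 11.74 in C57-mES and 12.45 in FVB-sFB. Nupr1, a small stress-induced chromatin protein, read 9.85, 9.58, 9.85 and 9.55 in sFB-protein-iPS and 11.43, 12.39, 12.40 and 12.42 in GFPoct4. GFPoct4 array 1 was about 1 log2 unit below the other 3, and the groups did not overlap (log2 -2.46 ± 0.21, limma adjusted p = 7.41e-10), with -2.70 without that array.

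Ddit4 (Redd1), an inhibitor of the growth kinase mTOR, was 6.37-fold lower and Slc3a2, the heavy chain of amino acid transporters, 2.96-fold lower. Atf5 rose 3.3-fold. The factor Atf4 itself (-0.54) and its targets Asns (0.10), Trib3 (-0.52) and Ddit3 (-0.42) were not called. The list had 5 lower and 1 higher with median centring and 9 lower and 1 higher in the deposited values.

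Atf4 binds with C/EBP factors to elements with the core TGATGNAA, which was in 1134 of the 32851 windows of 250 bases, or 3.45%, searched on both strands. Of the 24 list members 20 had a window and 6 held the core, and of the 5 called members all 5 had a window and 2 held it. As above, a member with several windows counted if any of them held the core, whereas the 3.45% is per window. These 2, Chac1 and Nupr1, are shown with the match in capitals. Chac1 (chr2:119350992-119351241, plus strand) has it on the opposite strand, starting 193 bases before the start site, and Nupr1 (chr7:126625471-126625720, minus strand) has it on the strand opposite to the gene, starting 110 bases before the start site. Asns holds the core too and was not called.
Chac1: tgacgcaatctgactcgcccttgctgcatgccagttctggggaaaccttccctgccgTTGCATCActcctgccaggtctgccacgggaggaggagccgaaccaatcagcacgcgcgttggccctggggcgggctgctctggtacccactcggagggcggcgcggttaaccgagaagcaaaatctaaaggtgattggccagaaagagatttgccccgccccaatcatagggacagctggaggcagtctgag
Nupr1: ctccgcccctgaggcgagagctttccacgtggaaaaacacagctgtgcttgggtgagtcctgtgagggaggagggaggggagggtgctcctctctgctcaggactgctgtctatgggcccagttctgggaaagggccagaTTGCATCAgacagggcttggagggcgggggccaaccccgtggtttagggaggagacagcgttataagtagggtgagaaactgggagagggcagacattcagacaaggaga

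Several genes of glycolysis and of the response to low oxygen were lower in sFB-protein-iPS. Of 28 measured members 8 were called lower (3.47% over all genes) and 0 higher, with a median of -0.35, and the number was 9 with median centring and 10 in the deposited values. Tpi1 and Ldha are enzymes of glycolysis and both are among the bright genes of these arrays. Tpi1 read 12.61, 12.72, 12.83 and 12.57 in sFB-protein-iPS and 14.64, 14.37, 14.39 and 14.42 in GFPoct4, a 3.42-fold difference without overlap (log2 -1.77 ± 0.09, limma adjusted p = 6.45e-14). Ldha was 2.07-fold lower and lost its call without GFPoct4 array 1 (-0.97), and the pyruvate kinase Pkm was 2.21-fold lower. The glycogen phosphorylase Pygb was 4.3-fold lower and above background on 1 of 4 sFB-protein-iPS arrays. Ndrg1, a stress gene induced by low oxygen, was 2.71-fold lower. Egln3 gave -1.69 ± 0.11, and its other probe was below background in both groups. Probes above background differed in size for Pfkp (-1.57 ± 0.15 on the brightest and -0.14 on another) and Vegfa (-1.20 ± 0.16 and -0.43), and both calls were lost with the mean over probes. Of 19 subunits of oxidative phosphorylation 2 fell (3.47% over all genes), Atp5a1 (log2 -2.59 ± 0.10) and Cox7a1 (log2 -1.09 ± 0.37). For Cox7a1 GFPoct4 array 1 read 9.18 and the other 3 from 11.59 to 11.79, and without array 1 the difference was -1.72. The sFB-protein-iPS arrays read from 9.77 to 10.15, so the groups overlapped. The call of Cox7a1 was lost without sFB-protein-iPS array 4 or GFPoct4 array 2, 3 or 4, with a difference as small as -0.85.

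Some interferon-induced and antigen presentation genes were lower as well. Of 23 interferon genes 5 fell (3.47% over all genes) and 1 rose (2.68%), with a median of -0.33, and with the 8 arrays fitted alone 2 fell and 1 rose. Ifi27 was 9.33-fold lower, with 6.75, 7.0, 6.71 and 7.0 in sFB-protein-iPS and 9.67, 10.26, 10.14 and 10.28 in GFPoct4, and above background on 2 of the 4 sFB-protein-iPS arrays. Gbp2, Mx2, Stat2 and Usp18 were below background in sFB-protein-iPS and lower by at least 1.84-, 1.44-, 1.66- and 1.35-fold. Bst2 (tetherin), which holds back budding viruses, rose 4.44-fold from 7.22, 8.50, 8.19 and 8.78 to 10.54, 10.20, 10.60 and 9.96. Its log2 fold change was 2.15 ± 0.29, and 1.83 without GFPoct4 array 1, the lowest of the group. Of 15 genes of MHC class I 4 fell (again 3.47% over all genes) and 0 rose, namely H2-T23 (log2 -1.60 ± 0.13), H2-K1 (-1.25 ± 0.10), H2-Bl (-1.21 ± 0.12) and B2m, the light chain of the complex (-1.05 ± 0.16). The H2 genes are near-identical copies that vary between strains, which the labels do not give. B2m lost its call without GFPoct4 array 3 or 4.

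Germ line genes moved both ways. Of 24 measured members 5 rose (2.68% over all genes) and 2 fell (3.47%), with a median of 0.26. With median centring 2 rose and 2 fell, and in the deposited values 1 rose and 2 fell with a median of -0.07. Rhox5, a homeobox gene of the X chromosome, read 11.86, 11.58, 11.70 and 11.54 in sFB-protein-iPS and 9.73, 10.40, 10.49 and 10.54 in GFPoct4. The groups did not overlap (2.61-fold, log2 1.38 ± 0.16, limma adjusted p = 7.67e-08), and C57-mES was higher than both at 13.34 ± 0.05. The difference was 1.20 without GFPoct4 array 1, and the call was lost in the deposited values. Tex19.1, which restrains transposons, was 2.55-fold higher, the RNA-binding protein Dazl 2.57-fold and Rhox9 2.36-fold. Rhox6 was at least 1.66-fold higher from below background. Stra8, the gene that licenses meiosis, was at least 2.44-fold lower, at 6.09 ± 0.19 against 8.11 ± 0.11, and Xlr4a was 2.14-fold lower. Of these, Dazl, Rhox9 and Rhox6 lost their calls with both other scalings.

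Imprinted genes, which are expressed from 1 parental copy and are watched in iPS lines, included 3 that rose (2.68% over all genes) and 2 that fell (3.47%) of 25, with a median of -0.07. Dlk1, a paternally expressed inhibitor of fat cell formation, read 7.23, 7.15, 7.26 and 7.11 in sFB-protein-iPS and 10.59, 10.69, 10.26 and 10.53 in GFPoct4. It was 10.1-fold lower (log2 -3.33 ± 0.14, limma adjusted p = 1.79e-15), with 6.46 in E14-mES, 8.97 in C57-mES and 8.85 in FVB-sFB. Cdkn1c, a maternally expressed inhibitor of the cell cycle, was 3.47-fold lower. Phlda2, a maternally expressed gene that limits placental growth, was 3.93-fold higher, Grb10 3.57-fold and Ndn (necdin) 3.17-fold. Of the 18 genes of p53 targets and CDK inhibitors 3 fell (3.47% over all genes) and 0 rose. Cdkn2b, at least 3.44-fold lower, and Sesn1, 2.81-fold lower on its brightest probe, fell beside Cdkn1c.

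Hprt, the purine salvage enzyme on the X chromosome was read by 3 probes. On the brightest it read 6.54, 6.25, 6.27 and 7.0 in sFB-protein-iPS and 8.90, 8.94, 8.85 and 8.87 in GFPoct4. There sFB-protein-iPS was above background on 1 of 4 arrays and 5.18-fold lower (log2 -2.37 ± 0.12, limma adjusted p = 9.17e-14), with 6.83 in E14-mES, 13.21 in C57-mES and 12.50 in FVB-sFB. The second probe gave -1.05, and the third was below background in both groups. Xist, the RNA that silences an X chromosome in female cells, was below background on all 4 sFB-protein-iPS arrays and above it on 2 of 4 GFPoct4 arrays. Its means were nearly the same, 6.60 and 6.65, and the log2 difference of -0.05 was not called. The background level was 6.81 to 6.83 on the sFB-protein-iPS arrays and 6.71 to 6.76 on the GFPoct4 arrays. The Y-linked gene Eif2s3y differed by -0.01 ± 0.12 (limma adjusted p = 0.95), with overlapping arrays at 9.13 ± 0.10 and 9.15 ± 0.20. Uty, also on the Y chromosome, read 7.52 ± 0.29 and 6.93 ± 0.13.

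Further decreases concerned single genes of the remaining lists. Stmn1 (stathmin), which takes microtubules apart, was 7.28-fold lower, and Arhgdib was 9.71-fold lower on its brightest probe, the other being below background in both groups. Esd was -2.80 ± 0.15 on its brightest probe and 0.23 on another. Ccnd1 (cyclin D1) was 3.24-fold and Top2a 2.24-fold lower. They were the 2 called of 23 cell cycle genes, 8.7% against 6.15% over all genes. The median of that list was -0.51, and the number called was 7 with median centring and 8 in the deposited values. The activin subunit Inhbb was 3.69-fold lower. The BMP receptor Bmpr1a was 3.48-fold lower on its brightest probe, but another probe above background gave 0.18 and the call was lost with the mean over probes, so its direction is not settled. Uhrf1, the partner of the maintenance DNA methyltransferase, was 2.52-fold lower on its brightest probe. Of 33 Hox genes 2 were called, 6.06% and so near the 6.15% over all genes. They were Hoxa5, at least 3.36-fold lower, and Hoxc6, at least 1.52-fold lower, both below background in sFB-protein-iPS. Hoxc6 lost its call in 7 of 18 alternatives, among them median centring, the 8 arrays fitted alone and leaving out single arrays.

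The groups outside the comparison place these differences. Over the 445 genes called higher, the median level was 10.003 in sFB-protein-iPS, 8.54 in GFPoct4, 8.57 in E14-mES and 9.49 in C57-mES. Over the 576 called lower it was 7.97, 9.33, 9.06 and 8.32 in the same order. In both sets E14-mES lay nearer GFPoct4 and C57-mES nearer sFB-protein-iPS. The array maxima split these groups in the same way, so scan and cells cannot be told apart here. FVB-sFB, a different cell type, had medians of 8.69 and 8.88. Both sets were chosen by the values of sFB-protein-iPS and GFPoct4, which by itself sets the medians of these groups apart. Over the 8702 genes above background in either of them the medians were 8.85 and 8.89. There E14-mES had 8.89, C57-mES 8.85 and FVB-sFB 8.77. The FVB-sFB medians of both sets lay close to this level, and no likeness is read from them. By the same limma fit and thresholds 315 genes (1.9%) differed between E14-mES and GFPoct4 and 1276 (7.69%) between C57-mES and GFPoct4, while 1137 (6.85%) differed between sFB-protein-iPS and E14-mES and 729 (4.39%) between sFB-protein-iPS and C57-mES, comparisons that share arrays with this one. Of the 20 largest decreases 14 had a higher mean in FVB-sFB than in either group compared, and of the 20 largest increases 1 did.

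**Figure D5:**
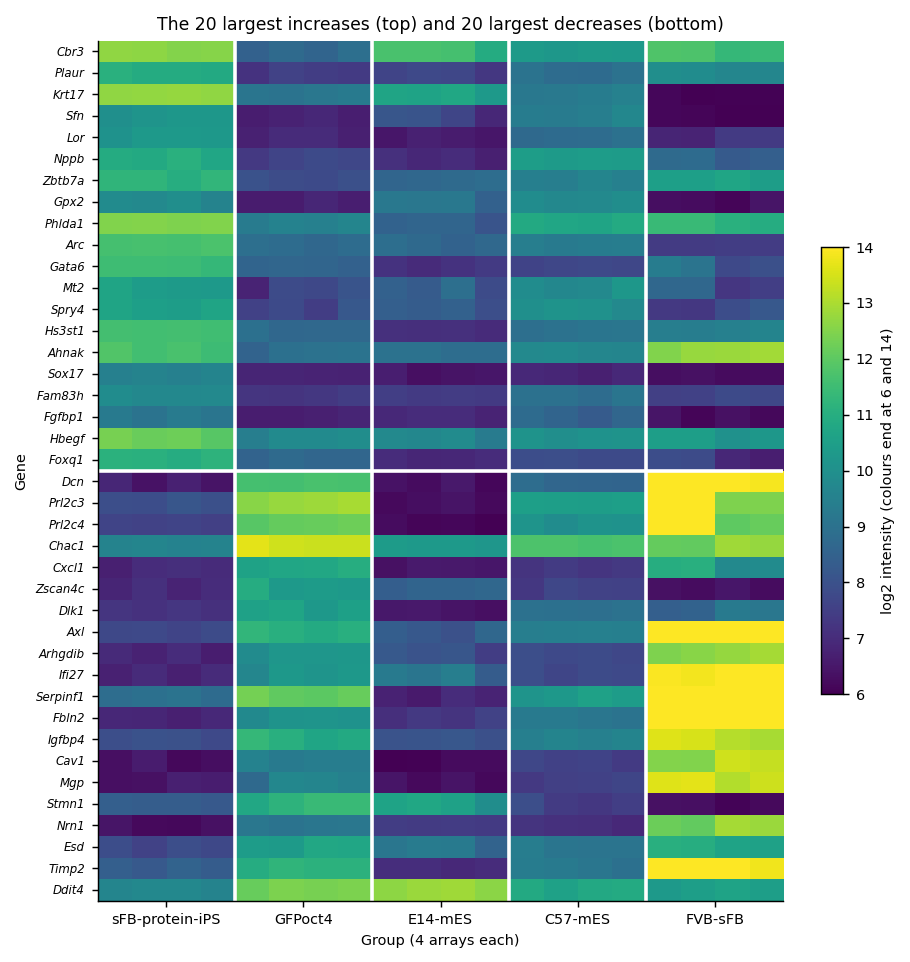
Log2 intensity, by colour, of the 20 genes with the largest increases (top) and the 20 with the largest decreases (bottom) in sFB-protein-iPS against GFPoct4, on all 20 arrays in columns by group. The 4 arrays of a group look alike, and most genes of the lower block are brightest in FVB-sFB, with Zscan4c, Stmn1 and Ddit4 among the exceptions.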

How the data were processed

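Total RNA (500 ng per sample, per the labels) was measured on Illumina mouse bead arrays in 20 samples, grouped by title. The deposited table of intensity is linear and not normalized, exported with BeadStudio per the submitters' processing notes (version not given). The deposited log2 values are the log2 of that intensity within 5e-09. The platform annotation gave 1 gene symbol for 23978 of 25697 probes, none for 1719 and several for 0, and 23962 were found in RefSeq, with 0 symbols changed. Detection p-values, slides and dates were not used. Precision is limited by the array number, and 0 value columns were unused.

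Values were corrected with normexp (offset 50), put on the log2 scale, quantile normalized and fitted with limma 3.58.1 in R 4.3.3, as 1 model of 5 groups over all 20 arrays. P-values were adjusted by Benjamini-Hochberg over 16593 genes, each by its brightest probe (4777 had several), and a gene was called at an adjusted p under 0.05 and a log2 fold change of at least 1 in size. Errors are SE for differences and SD for means. Folds are lower bounds (at least) for a dim group below background on all 4 arrays, computed from the higher of the dim probe's value and the background level. The fit was tested on simulated data.

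The members, the 36 gene lists (667 genes measured) and the background probes were chosen with earlier results of these data known. Named were the 20 largest increases and decreases among called genes without overlap and bright enough on all 4 arrays, without predicted names, up to 4 called members of each list, and 14 genes always shown. A further 39 genes were added after their values were seen, and Asns, Trib3, Ddit3, Atf4, Lum, Pdgfrb, Prrx1, Nqo1, Txnrd1 and Gclc likewise. Spry1, Spry2, Spred2 and Dusp4 were also named after the calls were known. Alternatives were no or another background offset, median centring, the deposited log2 values, a filter on dim probes, other probe rules, fewer arrays, a replicate block and leaving out each array.

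Whether the replicate numbers pair the arrays was checked by the correlation of same-numbered deviations, which was -0.02, 0.00, 0.12 and -0.07 for numbers 1 to 4, so the numbers were not used.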

Additional observations from a re-analysis of the deposited data

Results flagged for a closer look

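Of 328 groups of 4 arrays (164 genes in 2 groups), 19 held 1 array whose gap to the others was large against the group's whole range, and chance gives about 1 in 20. GFPoct4 array 1 was that array in 10 of them. It read low for Cox7a1 (9.18, the others 11.59 to 11.79), Mylpf (10.39, the others 11.42 to 11.51), Nupr1 (11.43, the others 12.39 to 12.42), Hbegf (9.41, the others 9.83 to 9.91), Arhgdib (9.87, the others 10.20 to 10.22) and Id1 (10.27, the others 10.49 to 10.51). It read high for Zscan4c (10.94, the others 10.31 to 10.38), Epop (12.69, the others 12.35 to 12.40), Tead4 (8.13, the others 7.84 to 7.85) and Uhrf1 (13.71, the others 13.47 to 13.49).

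The other GFPoct4 arrays were array 2 for Gpx3 (8.70, the others 8.51 to 8.53), array 3 for Slc3a2 (9.26, the others 8.88 to 8.92) and array 4 for Bmpr1a (9.94, the others 9.74 to 9.76). On the sFB-protein-iPS side array 1 was low for Vegfa (9.02, the others 9.45 to 9.52), array 2 for Krt18 (8.72, the others 8.81 to 8.83) and array 3 for Zbtb7a (10.97, the others 11.23 to 11.26). Array 4 was low for Gata6 (11.32, the others 11.48 to 11.51) and Srxn1 (10.97, the others 11.08 to 11.10) and high for Lama1 (13.19, the others 13.04 to 13.06). Without GFPoct4 array 1 the calls numbered 1061, against 1021 with it, and 965 were shared. The cause of its difference was not tested.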

How the results depend on the processing

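The number of calls was 1021 and lay between 805 and 1523 under the alternatives that keep all arrays of both groups. Leaving out each array gave 987 to 1061 calls, 428 to 452 higher and 559 to 610 lower. With the replicate block the calls were the same 1021 (445 higher, 576 lower), and with the pairing not borne out this block is given only here. Scaling moved the split: 208 higher and 992 lower with median centring, 132 and 1391 in the deposited log2 values. Of 164 named genes 99 kept direction and call under every alternative run. The cause of the other changes was not tested.

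Signs turned for genes near 0 or with several probes, in log2 units. With median centring Klf4 was -0.19 and Nanog -0.13. In the deposited values Klf4 was -0.33, Nanog -0.27 and Myog, a muscle gene at 0.36 in the fit used, -0.0078. With the probe of median fold change Sox2 was -1.22, Gsta3 -0.19, Myog -0.095, Gbp2 0.0017 and Jam2 0.30. With the mean over probes Sox2 was -0.38, Klf4 -0.0700, Jam2 0.29 and Xist 0.065. With the 8 arrays alone another probe of Insig1, a brake on cholesterol synthesis at 1.20 in the fit used, was the brightest and gave -0.63. Leaving out single arrays spanned 0 for Eif2s3y (-0.108 to 0.0352), Esrrb (-0.0943 to 0.0410), Klf4 (-0.00096 to 0.0656), Nanog (-0.0475 to 0.0671) and Xist (-0.113 to 0.0173).

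The quantile fit assumes like distributions, and array maxima, groups and scan cannot be told apart. Probes near background understate folds.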
